A study of Danio rerio with 28 samples.

Results

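Hybrid hepatocyte-biliary cells were defined in the regenerating adult zebrafish liver at 3 days post ablation (dpa). They were single cells that passed set limits for hepatocyte and for biliary transcripts at once. For each cell, H was the percentage of its unique molecular identifiers (UMIs, tags that mark single captured transcripts) from apoa1b, apoa2, fabp10a and tfa, and B the percentage from anxa4, epcam, tm4sf4 and cdh1. A cell was a hybrid at H of at least 3% and B of at least 0.4% with at least 5 B UMIs. There were 243 such cells among 2548 called cells at 3 dpa and 25842 called cells in the series. They were set against 376 hepatocytes of the same libraries with H of at least 3% and B under 0.1%, called low-B hepatocytes here, and against 148 biliary cells that met the B limits with H under 3%. The cells were chosen by these values of the 8 genes, so the levels of those 8 genes are given as a description.

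All 3 dpa cells came from adult fish that carried the ablation line Tg(fabp10a:CFP-NTR), the driver Tg(Tp1:CreERT2) and the switch reporter Tg(-3.5ubb:LOXP-EGFP-LOXP-mCherry), and each of the 3 libraries held mCherry+ cells sorted from the liver. The paper used both sexes where it does not say otherwise, and its atlas of the uninjured liver came from males. The labels give no sex, so the sex of the fish behind each library is not known. Tp1 is a Notch-responsive element, so that 4-OHT switches cells with Notch activity, in this organ biliary epithelial cells (BECs), and their descendants to mCherry. The fabp10a promoter drives nitroreductase (NTR) in hepatocytes, which metronidazole (MTZ) then kills. Hybrids, low-B hepatocytes and biliary cells therefore shared genotype, treatment, sort and library. The number of fish behind a library is not known. With library as a block, p-values measure how class differences vary between 3 libraries, a spread which may be technical. The hepatocyte promoter of the ablation transgene also means that NTR is itself a hepatocyte transcript in these fish.

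Hepatocytes secrete most plasma proteins and hold the enzymes of amino acid, lipid and purine metabolism, while BECs line the bile ducts, are joined by tight junctions and carry keratins, annexins and water and ion channels. When hepatocytes are nearly all lost in zebrafish, BECs can take on hepatocyte gene expression. Cells that hold both programs are therefore of interest as possible intermediates, and free RNA and droplets that hold a pair of cells also put transcripts of both programs on a single barcode.

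The 3 libraries at 3 dpa held 5789678 to 6893275 UMIs over 5000 barcodes each, and a barcode was called a cell above its library's mean of 1158 to 1379 UMIs. Pairs of them shared 1, 2 and 2 called barcodes, and 1 hybrid barcode was shared. Summed counts differed between libraries by more than the counting noise of independent UMIs (chi-square per gene of 1.56 to 1.72 over all classes). UMIs of a cell are not independent, so this measure cannot tell different pools from different draws of cells. Each library counted as 1 replicate. The macrophage, lymphocyte, neutrophil, erythrocyte, endothelial, stellate and fibroblast and pancreas markers each made up at most 0.0042% of the UMIs of the hybrids in any library. The 5 endothelial markers were at 0 in hybrids, in low-B hepatocytes and in biliary cells. Too few UMIs of these lists were found for any gene of them to be tested.

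The hybrids formed the upper end of a continuous range of B and not a separate group. They numbered 81 of 865 called cells in replicate 1 (9.36%, 95% exact Clopper-Pearson interval 7.51% to 11.5%), 78 of 825 in replicate 2 (9.45%, 7.55% to 11.7%) and 84 of 858 in replicate 3 (9.79%, 7.88% to 12%), on average 9.54% ± 0.22 (SD, n = 3), where the intervals cover counting error only. The shares thus lay within the counting intervals of one another. Among cells with H of at least 3%, hybrids made up 11.3%, 11.6% and 11.9%. The median B of those cells was 0.202%, 0.199% and 0.191%, and the 90th percentile was 0.425%, 0.430% and 0.435%, close to the limit of 0.4%. Between the limits of 0.1% and 0.4% lay 71.4%, 69.2% and 70.8% of them, 1477 cells in all. The cells just inside the limit had a B of 0.40007%, 0.400146% and 0.400229%, from 23, 22 and 7 B UMIs, and those just outside had 0.39932% to 0.399782%. At the other limit, the cells just inside had an H of 3.01%, 3.03% and 3.07%, and those just outside 2.85%, 2.98% and 2.99%.

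**Figure D1:**
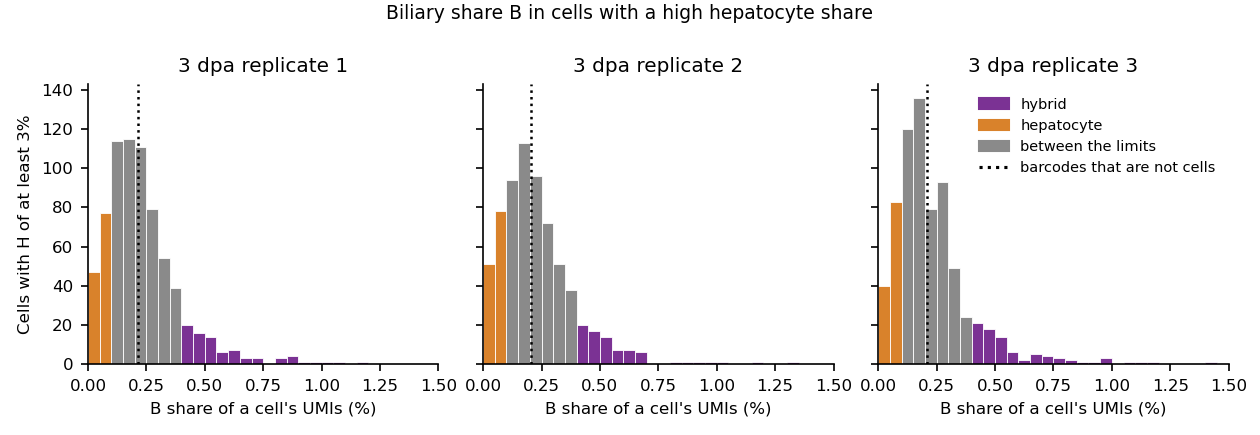
Number of called cells with H of at least 3% (y axis) by B, the percentage of UMIs from the 4 biliary genes (x axis), in each of the 3 dpa libraries, with hybrids, cells between the limits and low-B hepatocytes in separate colours and the B of barcodes that are not cells as a dotted line. The counts fall off on both sides of a median of 0.191% to 0.202%, with no gap at 0.4%.

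Cells that met the same limits were rare in the other libraries. There were 3 of 2506 called cells at 7 dpa (0 to 2 a library) and 7 of 5879 in the all-cell libraries of the uninjured liver (0 to 4 a library), although 1437 and 3618 cells there had H of at least 3%. None were found among 2518 called cells at 1 dpa and 2111 at 2 dpa, where no cell reached H of 3%. None were found either in uninjured mCherry+ cells, uninjured GFP+ cells, mock or 0 dpa. A count of 0 allows a share of up to 0.213% to 0.447% of all called cells in these libraries, counting error only. Median depth was 435 to 600 UMIs in mock and 0 dpa, where 5 B UMIs make more than 0.4% of the median cell, so the limits were harder to meet there. Over cells of at least 1250 UMIs alone, 87 to 189 a library in mock and 0 dpa, a count of 0 allows up to 1.59% to 3.45% in those 6 libraries. In the libraries of 1 dpa, 2 dpa and sorted uninjured cells it allows up to 0.258% to 0.626%. When every called cell was thinned to 1250 UMIs, the depth at which 5 UMIs make 0.4%, 405 of the 2513 cells deep enough at 3 dpa met the limits (16.1% on average), against 4 of 1808 at 7 dpa, 6 of 4906 in the uninjured liver and 0 in the other groups, of which mock had 278 such cells and 0 dpa 548. Thinning adds counting error to B, so cells with a B under 0.4% at full depth can pass, and this part was not separated.

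Free RNA at 3 dpa carried both sets of transcripts. Barcodes that were not cells had a B of 0.205% to 0.214% and an H of 7.15% to 7.41%, against a B of 0.410% to 0.418% and an H of 0.162% to 0.169% at 2 dpa and a B of 0.0365% to 0.0386% at 7 dpa. In hybrids the median H was 6.84%, 6.90% and 6.78%, below that of the 3 dpa barcodes that were not cells. The median B of hybrids was 0.518%, 0.509% and 0.511%, above that of those barcodes, as the limit of 0.4% requires. Over all 3 dpa cells with H of at least 3% the median B was 0.202%, 0.199% and 0.191%, slightly below it. In called cells with at least 5 UMIs of macrophage markers, which should lack both programs, the median B was 0.0477%, 0.0309% and 0.0588% and the median H 1.08%, 0.962% and 0.940%, and 2 of these 77 cells met the limits. With classes set after subtraction of the 95th percentile of barcodes that are not cells, 219 cells at 3 dpa met the limits, against 4 at 7 dpa, 1 at 2 dpa and 4 in the uninjured liver.

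Of the 8 genes that chose the cells, the hepatocyte genes were present in every hybrid and the biliary genes lay between the levels of both other classes. The lipid transport gene apoa1b had 7997, 6248 and 5516 CPM (counts per 1000000 UMIs) in the hybrids of replicates 1, 2 and 3, against 13024, 12818 and 13587 CPM in low-B hepatocytes. Fatty acid binding protein fabp10a had 13737, 13422 and 13494 CPM in hybrids, against 16176, 16557 and 18320 CPM in low-B hepatocytes. The iron carrier tfa went the other way, at 31784, 32935 and 32253 CPM in hybrids, against 29112, 28619 and 29162 CPM in low-B hepatocytes. For these 3 genes the libraries of both classes did not overlap. The apolipoprotein apoa2 averaged 21272 ± 1161 CPM in hybrids and 26203 CPM in low-B hepatocytes. Its libraries did not overlap either, with at most 22023 CPM in hybrids and at least 25514 CPM in low-B hepatocytes. Biliary cells had 936 CPM of apoa1b and 2497 CPM of fabp10a on average, so the hybrids stood nearer to low-B hepatocytes in fabp10a and about midway between both classes in apoa1b, by differences in CPM.

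The annexin anxa4, which led the B total, had 3676, 3610 and 3547 CPM in hybrids, against 407, 343 and 384 CPM in low-B hepatocytes and 6726, 6506 and 7330 CPM in biliary cells. The adhesion gene epcam averaged 957 CPM in hybrids, against 65.0 CPM in low-B hepatocytes and 1587 CPM in biliary cells. The tetraspanin-like gene tm4sf4 averaged 738 CPM in hybrids, against 147 CPM in low-B hepatocytes and 1383 CPM in biliary cells. The cadherin cdh1 averaged 222 CPM in hybrids, against 45.5 CPM in low-B hepatocytes and 732 CPM in biliary cells. Hybrids thus stood between both classes in each of the 4 genes. These levels follow from the rule. The biliary lists without these genes are given further on, and genes that vary with B go with the same choice.

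**Figure D2:**
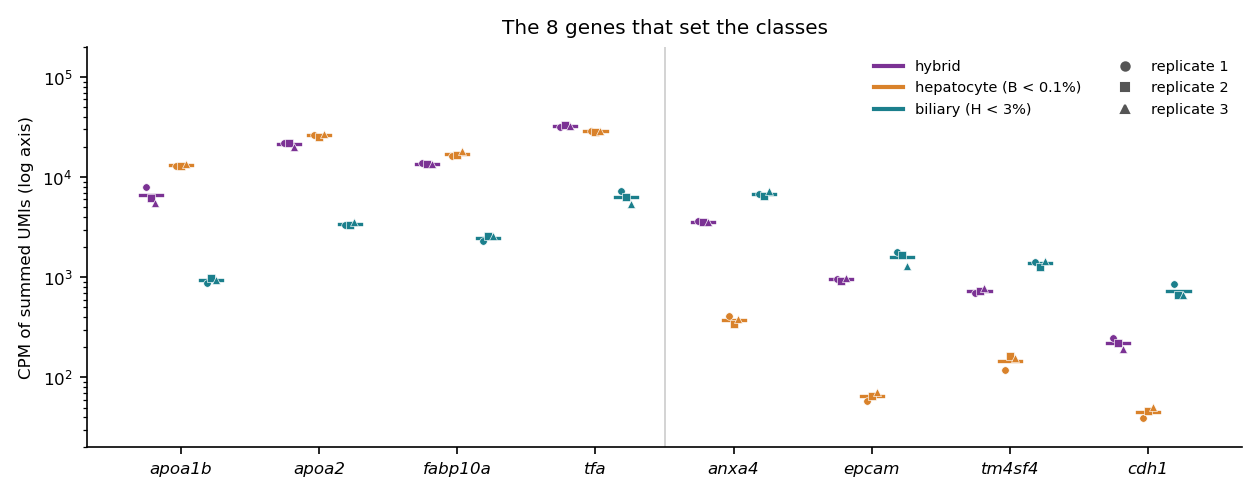
Levels of the 4 hepatocyte and 4 biliary genes that chose the cells, in CPM on a log axis, for hybrids, low-B hepatocytes and biliary cells, with 1 point per library and the mean as a line. On this axis hybrids sit nearer to low-B hepatocytes in all 4 hepatocyte genes (13551 CPM of fabp10a in hybrids, 17018 in low-B hepatocytes, 2497 in biliary cells) and between both classes in the biliary genes (3611, 378 and 6854 CPM of anxa4).

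The classes also differed in mitochondrial content and depth. Cells with over 30% of their UMIs from mitochondrial features made up 8.64%, 14.1% and 14.3% of hybrids, against 66.1%, 61.2% and 59.3% of low-B hepatocytes, 27.5%, 25.9% and 25.9% of cells between the limits and 38.1%, 31.0% and 18.8% of biliary cells. The median cell had 7030, 4695 and 5974 UMIs among hybrids, against 2698, 2545 and 2893 UMIs among low-B hepatocytes and 2155, 2481 and 2564 UMIs among biliary cells. Among cells between the limits it had 5802, 4980.5 and 5483 UMIs, a range that hybrids overlapped. In both measures no library of the hybrids overlapped a library of low-B hepatocytes. With cells over 30% left out, 213 hybrids, 142 low-B hepatocytes and 107 biliary cells were left, with medians of 7424, 5015 and 6807 UMIs in hybrids and 6762, 4773 and 4821 UMIs in low-B hepatocytes, and hybrids made up 15.195%, 14.5% and 14.6% of the cells with H of at least 3%. Counts of the main lists against low-B hepatocytes and values of the leading genes are therefore given for these low-mitochondrial cells too, a restriction chosen after seeing the data, and the part of mitochondrial content beyond that restriction was not tested.

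**Figure D3:**
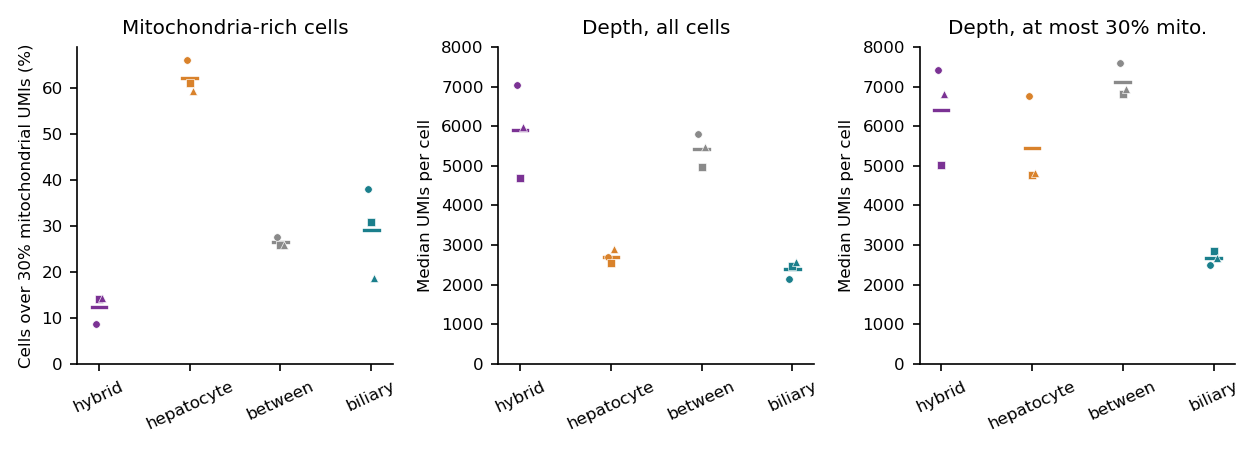
Percentage of cells over 30% mitochondrial UMIs (left), median UMIs per cell (middle) and median UMIs per cell of at most 30% mitochondrial UMIs (right) by class, with 1 point per 3 dpa library. Hybrids (8.64% to 14.3% over 30%) sit below low-B hepatocytes (59.3% to 66.1%), and the gap in median UMIs narrows on the right (5015 to 7424 in hybrids, 4773 to 6762 in low-B hepatocytes).

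Transcripts were then summed per library and class, the 8 genes that chose the cells were removed, and the other genes were compared to ask which of them went with a high B. Of 3839 genes tested with edgeR's quasi-likelihood test, 679 (17.7%) had an adjusted p under 0.05 between hybrids and low-B hepatocytes, with 345 higher (8.99%) and 334 lower (8.7%) in hybrids. The split depended on the scaling: with library size in place of TMM factors, which moved the median of all genes from near 0 to 0.26 on the log2 scale, 730 were higher and 147 lower. Without replicate 1, 2 or 3 the calls numbered 354, 405 and 434. DESeq2 called 299. In low-mitochondrial cells 615 of 2801 genes (22%) were called, 330 higher (11.8%) and 285 lower (10.2%).

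The genes that rose most in hybrids over low-B hepatocytes included tpm4a and elf3. The actin-binding tropomyosin tpm4a had 164, 135 and 139 CPM in hybrids, against 4.26, 6.90 and 10.03 CPM in low-B hepatocytes. Its log2 fold change was 4.03 ± 0.32 (SE), with an adjusted p of 5.9e-12 in edgeR, and 3.89 in low-mitochondrial cells. The epithelial transcription factor elf3 had 134, 173 and 110 CPM in hybrids, against 40.4, 4.60 and 16.0 CPM in low-B hepatocytes, a log2 fold change of 2.44 ± 0.34. No library of either gene overlapped between the classes, which the choice of the named genes required and which held for 37.1% of all genes tested. The chloride channel family gene clic2 (2.73), the calponin cnn2 (2.16) and s100a10a (1.90), the partner of annexin A2, also rose, as did 5 genes known by clone names, si:ch211-153b23.5 (4.24), si:dkey-96g2.1 (3.75), si:ch211-131k2.3 (3.62), CR762483.1 (3.31) and si:ch73-359m17.9 (2.43). In low-mitochondrial cells the values of elf3, clic2, cnn2 and s100a10a were 2.73, 2.52, 2.23 and 1.89.

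The genes that fell most in hybrids against low-B hepatocytes included ucp1 and rbp2a. The uncoupling protein gene ucp1 had 33.5, 73.8 and 56.9 CPM in hybrids, against 290, 315 and 221 CPM in low-B hepatocytes, a log2 fold change of -2.61 ± 0.21. The retinol-binding rbp2a had 226, 122 and 187 CPM in hybrids, against 577, 623 and 742 CPM in low-B hepatocytes, a log2 fold change of -2.12 ± 0.16. Both classes kept apart in every library, as the choice of the named genes required, and the log2 fold changes were -2.60 and -2.35 in low-mitochondrial cells. The related rbp2b (-2.01), the respiratory chain gene cox5b2 (-1.89), the integrin itgb1b.2 (-1.82), the mitochondrially encoded mt-atp8 (-1.75), an unannotated mitochondrial feature (-1.70), the RNase P RNA rpph1 (-1.70), the bilirubin-conjugating ugt1a1 (-1.67) and aplp1 (-1.59) were the other large falls. In low-mitochondrial cells mt-atp8 was -1.14, the unannotated feature -0.66, rpph1 -1.21 and aplp1 -1.25, all smaller in size, while rbp2b (-2.15), cox5b2 (-1.91), itgb1b.2 (-1.78) and ugt1a1 (-1.64) changed less. All 13 mitochondrially encoded genes fell, with a median of -1.41, against -0.0079 over all genes tested. In low-mitochondrial cells, where that group is limited by construction, 11 of 12 fell with a median of -0.49.

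Of the biliary gene lists, without the genes that chose the cells, part of each rose in hybrids over low-B hepatocytes and none fell. Since hybrids were chosen at a high B and low-B hepatocytes at a low B, a higher level of other biliary genes in hybrids goes with that choice. Among 18 tested keratins and junction genes 9 rose, with a median log2 fold change of 0.87, beside 8.99% of all genes tested that rose and a median of -0.0079 over them. The keratin krt18a.1 had 5219, 5673 and 5459 CPM in hybrids, against 2689, 2502 and 2668 CPM in low-B hepatocytes, a log2 fold change of 0.79 ± 0.07 in all cells and of 0.84 in low-mitochondrial cells. Its partner krt8 (0.63), the claudins cldn15lb (0.94), cldn15la (1.07), cldn2 (1.62) and cldn7b, f11r.1 (1.45), the protease inhibitor spint2 (2.00) and the adhesion molecule alcama rose too. The last of these had 17.6, 20.4 and 16.0 CPM in hybrids and no UMI in low-B hepatocytes of any library, at least 8.30-fold higher against a floor of 3 counts over the class. The tight junction gene cldn7b had 46 UMIs in hybrids and 3 in low-B hepatocytes, a ratio of 14.1 with a counting interval of 4.54 to 71.0.

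Among 14 tested annexins, S100 proteins, galectins and thymosins 6 rose, with a median of 0.78, beside the same 8.99% of all genes. They were s100a10a, s100a10b (1.23), the capping protein capgb (1.68), the S100-like icn (0.86), the galectin lgals2b (0.73) and the actin-sequestering tmsb4x (0.58). The level of lgals2b was 5254, 5169 and 4872 CPM in hybrids, against 2299, 2719 and 2686 CPM in low-B hepatocytes, with no overlap. Of 12 biliary and Notch regulators 4 rose, elf3, klf6a (1.54) and the matricellular genes ccn1 (2.07) and ccn2a (1.29), with a median of 1.41, again beside 8.99%. The zinc finger factor klf6a had 979, 1141 and 1145 CPM in hybrids, against 321, 283 and 325 CPM in low-B hepatocytes. Of 6 water and ion transport genes, aqp8a.1 (2.04) and atp1b1a (0.29) rose, with a median of 0.29, and DESeq2 called 0 of the 6. In low-mitochondrial cells 11 of 17 junction genes, 6 of 14 of the annexin group, 3 of 8 regulators and 1 of 6 transport genes rose, beside 11.8% of all genes there, and the Notch target her6 (-0.56) fell. The changes of ccn1 (2.07, adjusted p = 0.062, edgeR) and atp1b1a (0.24, adjusted p = 0.099, edgeR) did not pass the test in those cells.

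Most hepatocyte enzymes, none of which chose the cells, were lower in hybrids than in low-B hepatocytes. Of 26 tested enzymes and transporters 19 fell and 0 rose, with a median log2 fold change of -0.58, beside 8.7% of all genes that fell. None rose at an unadjusted p under 0.05 by edgeR either, and DESeq2 called 14 lower and 0 higher. They included the phenylalanine and tyrosine catabolism genes pah (-3.29), hgd (-1.93) and tat (-1.19), the gluconeogenic fbp1b (-1.29) and pck1 (-0.97), the urate-degrading uox (-1.12) and the methionine adenosyltransferase mat1a (-1.004). The level of fbp1b was 369, 397 and 363 CPM in hybrids, against 760, 754 and 776 CPM in low-B hepatocytes, with no overlap. In low-mitochondrial cells 16 of 24 fell with a median of -0.66, beside 10.2% of all genes there. With library size scaling 13 of 26 fell with a median of -0.31, beside 147 of all 3839 genes and a median of 0.26. For slc38a4 the sign turned, at -0.45 in all cells and 0.030 in low-mitochondrial cells.

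Of 25 tested plasma protein genes 12 fell and 4 rose in hybrids, with a median of -0.31, beside 8.7% of all genes that fell and 8.99% that rose. In low-mitochondrial cells 11 of 24 fell and 5 rose, with a median of -0.31. With library size scaling 7 fell and 7 rose, with a median of -0.04. Of all 3839 genes 147 fell and 730 rose there, with a median of 0.26. DESeq2 called 8 lower and 0 higher, beside 130 and 169 of all 3839 genes. The protease inhibitor serpina1 had 1113, 1090 and 907 CPM in hybrids, against 1499, 1594 and 1554 CPM in low-B hepatocytes, a log2 fold change of -0.85 ± 0.09. The apolipoprotein apoc1 had 6875, 3450 and 3170 CPM in hybrids, against 8311, 7287 and 7437 CPM in low-B hepatocytes. In both genes every hybrid library was below every low-B hepatocyte library, and apoc1 in the hybrids was highest in replicate 1. Plasminogen plg (-1.28), apobb.1 (-1.08), the vitamin D binding gene gc (-0.97) and apoeb (-0.76) fell as well, while the fibrinogen chain fgg (0.29), complement factor cfb (0.29) and the vitronectins vtnb (0.42) and vtna (0.46) rose. Of these 10 genes, apobb.1 (-0.50, adjusted p = 0.24, edgeR) did not pass the test in low-mitochondrial cells. In cells of like depth cfb was -0.55 (adjusted p = 0.043, edgeR) and vtna -0.17. At the stricter B limit of 0.8% fgg was -0.31. When cells between the limits took the place of low-B hepatocytes, 0 of 25 plasma protein genes rose and 9 fell. Of all genes 8.27% rose and 6.27% fell there. There fgg was 0.15, cfb 0.065, vtnb 0.15 and vtna 0.17.

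**Figure D4:**
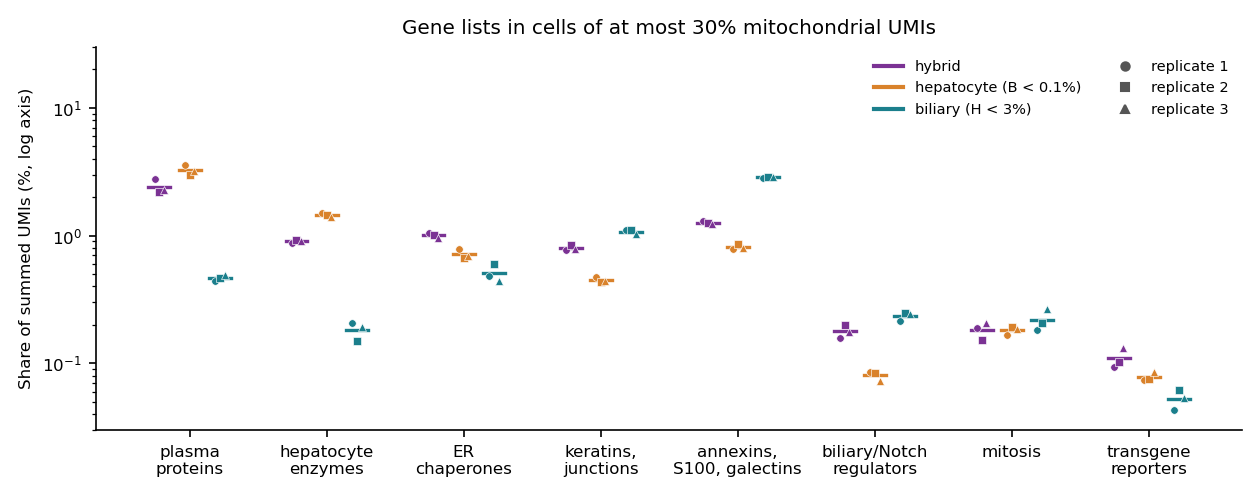
Share of summed UMIs (log axis) from each gene list in hybrids, low-B hepatocytes and biliary cells of at most 30% mitochondrial UMIs, without the 8 genes that chose the cells, with 1 point per library. Hybrids average 0.902% for hepatocyte enzymes against 1.44% in low-B hepatocytes and 0.182% in biliary cells, and 0.802% for keratins and junctions against 0.449% and 1.07%.

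Against the biliary cells, 1093 of 3839 genes (28.5%) differed, 556 higher (14.5%) and 537 lower (14%) in hybrids, and 726 without replicate 3. With library size scaling 722 were higher and 445 lower, beside a shift of 0.14 in the median of all genes. Of the plasma proteins 23 of 25 rose and ttr (-1.14) fell, with a median log2 fold change of 2.15, and 21 of 26 enzymes and transporters rose, with a median of 2.20, beside 14.5% of all genes that rose and a median of 0.0052 over them. The largest rises by the fitted fold change were of the carboxylesterase ces2a, the iron hormone hamp (4.25), ttc36, the sex steroid carrier shbg, si:ch73-281k2.5 (3.92), si:dkeyp-73d8.8 (3.74), the glutathione transferase gstt1a (3.73), serpina7 (3.66), zgc:123103 (3.65) and the clone-named gene next to trafd1 (3.599). The level of hamp was 266, 199 and 261 CPM in hybrids, against 0, 0 and 24.8 CPM in biliary cells. For ces2a there were 328 UMIs in hybrids and 3 in biliary cells, a ratio of 31.4 with a counting interval of 10.6 to 153. Since a cell counted as biliary only at a low H, a higher level of hepatocyte genes in hybrids goes with that choice.

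In 3 of 4 biliary lists most tested genes were lower in hybrids than in biliary cells. Of the keratins and junction genes 13 of 18 fell, of the annexin group 10 of 14, of the biliary and Notch regulators 8 of 12 and of the water and ion transport genes 3 of 6, with medians of -1.39, -1.75, -1.29 and -1.60, beside 14% of all genes that fell. The adhesion gene alcama had 17.6, 20.4 and 16.0 CPM in hybrids, against 260, 318 and 288 CPM in biliary cells, a log2 fold change of -4.11 ± 0.29. The water channel aqp8a.1 had 15.9, 15.3 and 14.2 CPM in hybrids, against 389, 452 and 387 CPM in biliary cells, a log2 fold change of -4.84. Libraries of hybrids and biliary cells did not overlap in either gene, which the choice of the named genes required and which held for 43.2% of all genes tested. Other large falls were of zgc:193726 (-4.47), the chemokine ccl35.1 (-4.05), si:dkey-96g2.1 (-3.99), dab2ipb (-3.82), smad3a (-3.78), her2 (-3.75), icn (-3.69) and cldn2 (-3.53). The receptor gene notch3 (-4.01) and the Notch targets her9 (-1.97) and her6 (-0.97) fell, and so did her15.1 and her15.2, near-identical copies whose counts are uncertain. The junction gene cldnh had no UMI in hybrids and 26 in biliary cells, at least 30.2-fold lower. The keratin krt18a.1 was 5219, 5673 and 5459 CPM in hybrids, against 4836, 4955 and 4177 CPM in biliary cells, with a log2 fold change of 0.11 ± 0.07 that did not pass the test (adjusted p = 0.31, edgeR).

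A set of 46 genes (1.2%) differed in the same direction from both classes, 38 above both (0.99%) and 8 below both (0.208%). This number varied with the setting: it was 27 without replicate 1, 29 without replicate 2 and 31 without replicate 3, 17 with DESeq2 (13 above, all 13 among the 38) and 147 with library size scaling. In cells of like depth, where 986 genes were tested, 29 of the 38 were tested and 3 of them stayed above both. At the B limit of 0.8%, where 1690 genes were tested, 29 of the 38 were tested and 4 stayed above both. Of the 8 below, 3 of 5 tested and 1 of 6 tested stayed below both in these 2 settings. In low-mitochondrial cells there were 45 (1.61%), 38 above (1.36%) and 7 below (0.25%), of which 28 and 5 were among those of all cells. In low-mitochondrial cells of like depth, where 2095 genes were tested, 35 of the 38 were tested and 21 stayed above both. Of the 8 below, 6 were tested there and 2 stayed below both. When cells between the limits took the place of low-B hepatocytes, a comparison added after seeing the data in which 640 of 4404 genes (14.5%) differed, 364 higher (8.27%) and 276 lower (6.27%), 32 genes lay beyond both classes (0.727%). Of these, 26 were above (0.59%), 20 of them among the 38, and 6 below (0.136%), 3 of them among the 8.

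Highest above both by the smaller fold change was s100a10a, at 333, 214 and 222 CPM in hybrids, against 51.1, 39.1 and 76.2 CPM in low-B hepatocytes and 147, 75.3 and 29.8 CPM in biliary cells. Its log2 fold change was 1.90 ± 0.23 over low-B hepatocytes and 1.63 ± 0.30 over biliary cells, and 0.97 over the cells between the limits. The homeobox gene tgif1, a repressor of TGF-beta signalling, had 259, 252 and 153 CPM in hybrids, against 97.9, 57.5 and 62.2 CPM in low-B hepatocytes and 86.5, 75.3 and 64.5 CPM in biliary cells. The 3 hybrid libraries were above all 6 others in both genes, as the choice of the named genes required. In low-mitochondrial cells the changes over low-B hepatocytes were 1.89 for s100a10a and 1.30 for tgif1. The gene g0s2, whose product blocks lipolysis in mammals, had 261, 384 and 228 CPM in hybrids, against 162, 66.7 and 96.3 CPM in low-B hepatocytes and 34.6, 100 and 44.6 CPM in biliary cells. Its change over low-B hepatocytes was 1.12 in all cells and 0.87 in low-mitochondrial cells. At the stricter B limit of 0.8%, where the fit rests on 23 hybrids of replicates 1 and 3, that change was -0.31 and did not pass the test.

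The serine protease inhibitor family gene serpina7, which in mammals encodes the thyroxine carrier of plasma, was the most abundant of the 10 named genes above both. It had 2606, 2264 and 2271 CPM in hybrids, against 1007, 918 and 1017 CPM in low-B hepatocytes and 242, 151 and 139 CPM in biliary cells, log2 fold changes of 1.01 ± 0.08 and 3.66 ± 0.13. Both held in low-mitochondrial cells, at 1.21 and 3.84. Its change over the cells between the limits was 0.42 (adjusted p = 7.6e-05, edgeR). The lectin itln3 had 145, 76.4 and 92.5 CPM in hybrids, against 44.7, 59.8 and 40.1 CPM in low-B hepatocytes and 8.65, 16.7 and 4.96 CPM in biliary cells, with a change over low-B hepatocytes of 0.86 in all cells and 1.06 in low-mitochondrial cells. The relaxin family gene rln3a had 150, 211 and 139 CPM in hybrids, against 93.7, 71.3 and 78.2 CPM in low-B hepatocytes and 8.65, 100 and 4.96 CPM in biliary cells, and its adjusted p over low-B hepatocytes was 0.042 in all cells and 0.076 in low-mitochondrial cells by edgeR. The remaining 4 of the named genes, the clone-named gene next to trafd1, si:ch73-335l21.4, zgc:174259 and zgc:174260, had log2 fold changes of 0.71 to 1.51 over low-B hepatocytes and of 0.82 to 3.599 over biliary cells. Over the cells between the limits, itln3 (0.38, adjusted p = 0.16) and rln3a (0.54, adjusted p = 0.054) did not pass edgeR's test. Neither did zgc:174259 (0.28, adjusted p = 0.053) and zgc:174260 (0.27, adjusted p = 0.063), while the other named genes above both did.

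**Figure D5:**
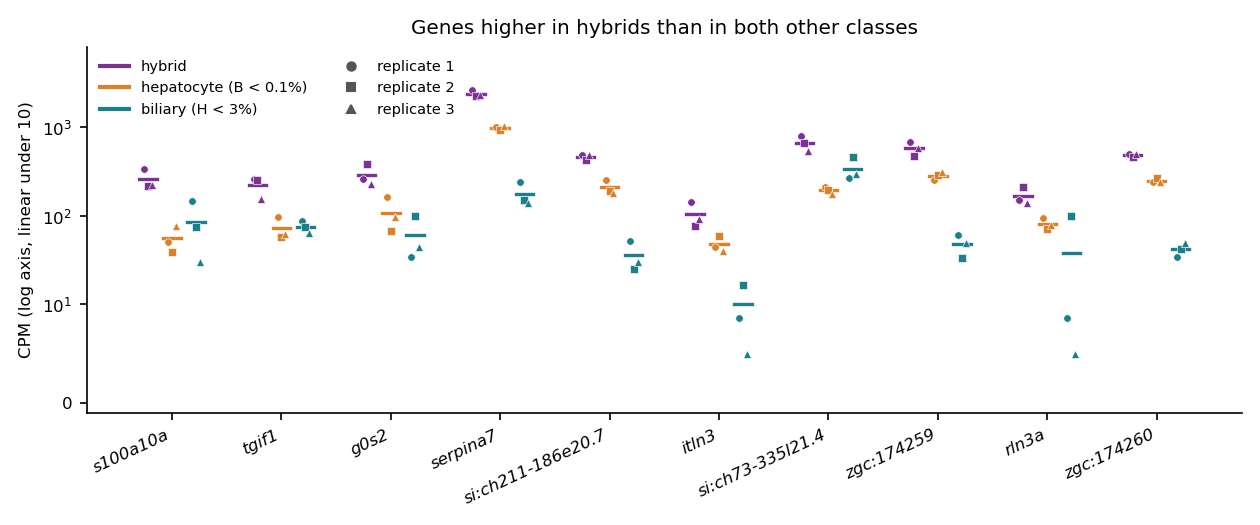
Levels of the 10 named genes above both classes, in CPM on a log axis, for hybrids, low-B hepatocytes and biliary cells, with 1 point per library. The 3 hybrid points lie above the other points of each gene, as the choice of these genes required. For serpina7 they run from 2264 to 2606 CPM, against 918 to 1017 CPM in low-B hepatocytes and 139 to 242 CPM in biliary cells.

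Chaperones of the endoplasmic reticulum, which fold secreted proteins, were partly among these genes. Of 16 tested, 5 rose over low-B hepatocytes, manf (0.70), hsp90b1 (0.53), hspa5 (0.47), hyou1 (0.42) and pdia3 (0.27), with a list median of 0.23, beside 8.99% of all genes that rose. All 5 also rose over biliary cells, where 10 of 16 rose with a median of 0.80. The chaperone hspa5 (BiP) had 3133, 2811 and 2883 CPM in hybrids, against 1965, 1477 and 1845 CPM in low-B hepatocytes and 1064, 1381 and 1062 CPM in biliary cells, with no overlap. In low-mitochondrial cells 7 of 14 rose over low-B hepatocytes, beside 11.8% of all genes there, though pdia3 did not pass the test (0.28, adjusted p = 0.055, edgeR). In all cells DESeq2 called 2 of 16 and library size scaling 9 of 16 higher, beside 169 and 730 of all 3839 genes. In cells of like depth the change of hyou1 was -0.01.

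The genes below both classes were the cytoskeletal kinase rock2a, the immediate early gene fosab, samm50 and mt-co1 of the mitochondrion, pbxip1b, zgc:92161 and 2 unannotated mitochondrial features. The larger of these features had 153056, 163453 and 160932 CPM in hybrids, against 298499, 285041 and 265818 CPM in low-B hepatocytes and 239696, 229126 and 225133 CPM in biliary cells. In low-mitochondrial cells its change against low-B hepatocytes was -0.05 (adjusted p = 0.58, edgeR). The level of fosab was 372, 662 and 455 CPM in hybrids, against 643, 718 and 788 CPM in low-B hepatocytes and 562, 795 and 952 CPM in biliary cells, and the hybrid range overlapped both others.

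Among transcription factors of the early liver, 2 passed the test against low-B hepatocytes, a share near that of all genes. Of 11 tested hepatic and hepatoblast factors, cebpb (0.48) rose and cebpa (-0.94) fell in hybrids against low-B hepatocytes, with a list median of 0.47, beside 17.7% of all genes that differed. DESeq2 called none of the 11, and 4 had an unadjusted p under 0.05 by edgeR. In low-mitochondrial cells 3 of 9 passed, cebpb (0.48), cebpa (-0.98) and nr5a2 (1.16, adjusted p = 0.016, edgeR), beside 22% of all genes there. Hepatocyte nuclear factor hnf4a had 49.4, 43.3 and 42.7 CPM in hybrids, against 59.6, 39.1 and 56.2 CPM in low-B hepatocytes and 8.65, 8.37 and 19.8 CPM in biliary cells, and it rose over biliary cells alone (1.56 ± 0.53, adjusted p = 0.026, edgeR). Its change against low-B hepatocytes was -0.47 ± 0.28. The factors prox1a (0.53 ± 0.37), hhex (1.44 ± 0.77), gata6 (0.47 ± 0.30) and foxa3 (-0.15 ± 0.30) did not pass the test against low-B hepatocytes, at means of 13.5 to 57.8 CPM in hybrids, and sox9b had too few UMIs to be tested. The factors onecut1 (-2.51) and nr5a2 (-2.42) fell against biliary cells.

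For genes of cell division, 1 call was made against low-B hepatocytes. Of 15 DNA replication genes none passed edgeR's test against low-B hepatocytes (median -0.16), beside 17.7% of all genes. At an unadjusted p under 0.05 1 was higher and 2 were lower, DESeq2 called 0, and 0 of 9 passed in low-mitochondrial cells. Against biliary cells dnmt1 and mcm3 fell. Of 13 mitosis genes aurkb (-1.17) fell against low-B hepatocytes, beside 8.7% of all genes. That call was lost in low-mitochondrial cells (-1.09, adjusted p = 0.054, edgeR) and with DESeq2, which called 0 of 13. Against biliary cells mki67 (0.83) rose and hmgb2a (-0.45) fell. Mitosis genes made up 0.182% of UMIs in hybrids, against 0.181% in low-B hepatocytes and 0.219% in biliary cells when low-mitochondrial cells were taken. Of 78 ribosomal protein genes rpl12 (0.24) rose over low-B hepatocytes, and none did in low-mitochondrial cells. With library size scaling 67 of the 78 rose, with a median of 0.31. In that setting 730 of all 3839 genes rose, with a median of 0.26. Of 19 nucleolar ribosome biogenesis genes 2 fell against low-B hepatocytes, gnl3 (-0.65) and npm1a (-0.24), a share near the 8.7% of all genes that fell. DESeq2 and library size scaling each called 0 of the 19 there, and npm1a was 0.024 with library size scaling. Over biliary cells 9 of the 19 rose, beside 14.5% of all genes, and DESeq2 called 4.

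Stress and growth factor response genes were mixed. Of 20 immediate early and heat shock genes 6 rose over low-B hepatocytes, led by hsp90aa1.2 (1.27 ± 0.08), and egr1 (-0.95) and fosab (-0.83) fell, beside 8.99% of all genes that rose and 8.7% that fell. In low-mitochondrial cells 6 rose and 2 fell too, with hsp90aa1.2 at 1.35. The number depended on the setting, with 11 higher under library size scaling and 2 higher and 1 lower with DESeq2. Of all 3839 genes, 730 were higher under library size scaling, and 169 were higher and 130 lower with DESeq2. Against the cells between the limits 2 of the 20 were higher and 3 lower, beside 8.27% and 6.27% of all genes. The level of hsp90aa1.2 was 11077, 11583 and 9286 CPM in hybrids, against 3589, 3422 and 4031 CPM in low-B hepatocytes and 9456, 9265 and 10640 CPM in biliary cells, so hybrids overlapped biliary cells. Against biliary cells 0 rose and 5 fell by edgeR, among them hsp70l and hsp70.3, near-identical copies. At an unadjusted p under 0.05 1 was higher and 8 were lower, and DESeq2 called 0 higher and 3 lower. Of 4 tested EGF family and MAPK feedback genes, the phosphatase dusp5 (1.37) and the EGF receptor ligand hbegfa (0.48) rose over low-B hepatocytes, beside 8.99% of all genes. Both did in low-mitochondrial cells (1.54 and 0.65). DESeq2 called 1 of the 4, and against the cells between the limits 1 of 5 rose. In cells of like depth hbegfa was -0.010 (adjusted p = 0.98, edgeR). Of 6 cholesterol synthesis genes none passed the test against low-B hepatocytes by edgeR or DESeq2, and 0 had an unadjusted p under 0.05.

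Of the 3 transgene transcripts, NTR was higher in hybrids than in both other classes. The ablation gene NTR had 647, 693 and 962 CPM in hybrids, against 404, 451 and 509 CPM in low-B hepatocytes and 147, 167 and 179 CPM in biliary cells, log2 fold changes of 0.48 ± 0.11 and 2.098 ± 0.16, and of 0.52 and 1.995 in low-mitochondrial cells. Against the cells between the limits its change was -0.01, and against low-B hepatocytes of like depth -0.29. The lineage reporter mCherry had 138, 163 and 169 CPM in hybrids, against 115, 87.4 and 102 CPM in low-B hepatocytes and 208, 335 and 298 CPM in biliary cells, with a change of 0.35 ± 0.20 over low-B hepatocytes that did not pass the test and of -0.98 ± 0.21 against biliary cells. The GFP feature averaged 147 CPM in hybrids, against 98.7 CPM in low-B hepatocytes and 45.4 CPM in biliary cells, and its reads cannot be told from those of the near-identical CFP of the ablation transgene.

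Single hybrids varied in both programs, over a range that low-B hepatocytes shared for plasma proteins. The share of UMIs from plasma protein genes at the 10th percentile of cells was 0.980%, 1.01% and 0.936% in hybrids, against 0.912%, 0.845% and 0.729% in low-B hepatocytes. At the 90th percentile it was 4.62%, 3.45% and 3.502% in hybrids, against 3.78%, 3.80% and 3.90% in low-B hepatocytes. The share from keratins and junction genes at the 10th percentile was 0.264%, 0.284% and 0.385% in hybrids, against 0.0960%, 0.0784% and 0.105% in low-B hepatocytes and 0.425%, 0.412% and 0.447% in biliary cells. At the 90th percentile it was 1.17%, 1.44% and 1.24% in hybrids, against 0.608%, 0.598% and 0.720% in low-B hepatocytes and 1.5002%, 1.46% and 1.36% in biliary cells. The biliary and Notch regulators were at 0 in 8.64%, 11.5% and 5.95% of hybrids, against 33.1%, 41.1% and 30.9% of low-B hepatocytes and 4.76%, 16.7% and 9.38% of biliary cells, both of lower depth. Counting error adds to these spreads and was not separated from them. Hybrids at or below the median depth of low-B hepatocytes, 12 to 20 a library, had 0.5256% of UMIs from keratins and junction genes, and deeper hybrids, 58 to 69 a library, had 0.798%.

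Doublets, droplets with 2 cells, were scored as the share of simulated pairs of cells among each cell's nearest neighbours. The median score was 0.76, 0.76 and 0.77 in hybrids, against 0.56, 0.64 and 0.58 in low-B hepatocytes, 0.74 to 0.76 in cells between the limits and 0.54 to 0.57 in biliary cells. Of the 243 hybrids 17 were among the 5% of called cells of their library with the highest score. Without those cells 226 hybrids were left, and 619 genes differed from low-B hepatocytes.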

How the data were processed

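Single-cell libraries were made by Drop-Seq from dissociated zebrafish livers. The deposited values are raw UMI counts per gene and barcode, which the authors obtained by alignment to GRCz11 with STAR 2.5.3 and the Drop-Seq tools. They were used unnormalized for 28 libraries, and 0 columns were left unused. The members and gene lists were chosen with earlier results of these data known. Counts were summed per library and class at 3 dpa, without the 8 genes of the rule, and CPM were taken over the remaining UMIs (over all UMIs for those 8 genes). Sums of a library come from the same pool, so library was a block in edgeR 4.0.16 (quasi-likelihood test, TMM factors, filterByExpr, R 4.3.3) with Benjamini-Hochberg adjustment at 0.05. The fit was tested on simulated data for hybrids against low-B hepatocytes. It recovered 28% of 1.5-fold rises, 70% of 2-fold rises, 100% of 4-fold rises and 36% of falls to 0.5-fold. Of its calls there 6.4% were false. The changed genes were drawn from those above a minimum mean level, so recovery of fainter genes was not measured. No library effect on single genes was simulated. Genes that did not pass the test may therefore still differ. SE is the log2 fold change divided by the root of F. No doublets were removed except in an alternative.

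Named genes were members of the lists that passed the test, 6 hepatoblast factors, and the 10 largest rises and 10 largest falls per contrast, with classes that do not overlap and at least 100 CPM in the higher class. By the same limits the 10 genes highest above and the 5 lowest below both classes were named, of which 4 qualified for the lower set. Of the list members, 1 is counted in its list and not reported here by name. Other genes beyond both classes were named after their values were seen. Alternatives covered the test (DESeq2 1.42.0), scaling, filter, block, classes, limits, depth, doublets, free RNA and each library left out. Cells between the limits and low-mitochondrial cells were added after seeing the data.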

Additional observations from a re-analysis of the deposited data

How the results depend on the processing

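Numbers of differing genes depended on the setting, and so did the numbers of genes tested. Over the alternatives there were 4754 values of named genes that passed the main fit. Of these, 4012 kept direction and side of the threshold, 707 kept direction and no longer passed, and 35 changed sign. The genes were chosen by the main fit to the same counts, which favours kept directions. Genes not tested under an alternative are left out, with 222 values in cells of like depth against 291 with DESeq2. Against low-B hepatocytes 679 of 3839 tested genes differed in the main fit and 299 of 3839 with DESeq2. At the B limit of 0.8% 328 of 1690 differed, and at the H limit of 6% 403 of 3187. In cells of like depth 195 of 986 differed, and in low-mitochondrial cells of like depth 376 of 2095. Leaving out a library gave 354 to 434, with 3870 to 4219 genes tested. Against biliary cells 1093 of 3839 differed in the main fit, 717 of 3839 with DESeq2 and 185 of 1690 at the B limit of 0.8%. In cells of like depth 292 of 986 differed, and in low-mitochondrial cells of like depth 688 of 2095. With a library left out the calls numbered 726 to 861. Beyond both classes were 46 of 3839 genes in the main fit, 17 with DESeq2 and 147 with library size scaling. There were 91 of 18747 without the filter on low counts, 12 of 1690 at the B limit of 0.8% and 10 of 986 in cells of like depth. With a library left out there were 27 to 31. Without the replicate block the numbers were 669, 1096 and 43. The correlation of deviations between the sums of a library was 0.048 to 0.14 for hybrids and low-B hepatocytes and 0.014 to 0.094 for hybrids and biliary cells. Hybrids averaged 9.54% of called cells in the main setting, 16.1% after thinning, 1.17% at the B limit of 0.8%, 6.09% at the H limit of 6%, 8.59% after background subtraction and 12.9% of low-mitochondrial called cells.

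Log2 changes against low-B hepatocytes that changed sign were, in cells of like depth, NTR -0.29, cebpb -0.15, cfb -0.55, fosl1a -0.12, hbegfa -0.010, hyou1 -0.011, vtna -0.17, zgc:174259 -0.017 and zgc:174260 -0.012. At the B limit of 0.8% they were fgg -0.31, g0s2 -0.31, hyou1 -0.11, si:dkeyp-73d8.8 -0.14, zgc:174259 -0.0044 and zgc:174260 -0.038. NTR was -0.013 against cells between the limits, npm1a 0.024 with library size scaling, and slc38a4 0.0064 at the H limit of 6%, 0.030 in low-mitochondrial cells, 0.079 in those of like depth and 0.049 in those with library size scaling. Against biliary cells they were, at the B limit of 0.8%, CR762483.1 0.64, hgd -2.58, lgals2b 0.028, mki67 -0.64, mt-atp6 -0.15, rps4x -0.0052, scp2a -0.48, si:ch211-153b23.5 0.12 and ucp1 -0.052. Without the filter they were hsp70.3 0.17, hsp70l 0.13, krt8 0.16, lgals2b 0.20 and mt-co1 0.076. Of these, cfb in cells of like depth passed the test with the opposite sign (adjusted p = 0.043, edgeR). In cells of like depth 9 of 222 values changed sign. In low-mitochondrial cells of like depth 1 of 269 did, that of slc38a4. At the B limit of 0.8% there were 30 hybrids, and the fit used the 23 of replicates 1 and 3, since the 7 of replicate 2 were under the minimum of 10 cells for a sum. All its numbers of calls and sign changes thus rest on hybrids of 2 libraries. The cause of the other changes was not tested.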

Other observations

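Genes above both classes that belong to no list of the report included gck, igfbp1a and sat1a.1. They were chosen after their values were seen. The glucose-phosphorylating gck had 68.8, 112 and 85.4 CPM in hybrids, against 51.1, 16.1 and 20.1 CPM in low-B hepatocytes and 8.65, 0 and 29.8 CPM in biliary cells. The insulin-like growth factor binding gene igfbp1a had 2375, 2019 and 2600 CPM in hybrids, against 1773, 1638 and 1394 CPM in low-B hepatocytes and 1012, 1147 and 1225 CPM in biliary cells. The polyamine acetyltransferase sat1a.1 had 1428, 1607 and 1389 CPM in hybrids, against 762, 541 and 758 CPM in low-B hepatocytes and 960, 1021 and 1032 CPM in biliary cells. In each of these genes the hybrid libraries lay above all others. Over all genes tested, hybrid libraries did not overlap those of low-B hepatocytes in 37.1% and those of biliary cells in 43.2%, in either direction. The actin gene acta1a had 65.2, 40.7 and 53.4 CPM in hybrids, against 4.26, 9.20 and 2.01 CPM in low-B hepatocytes and 25.96, 16.7 and 14.9 CPM in biliary cells. Its log2 change over the cells between the limits was 2.62 (adjusted p = 4.1e-08, edgeR).

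Of the 38 genes above both classes, 34 were found in the RefSeq gene table of the assembly GRCz12tu, used here for gene order alone. Among them a clone-named gene, zgc:174260, serpina7 and zgc:174259 stand next to each other in that order on chromosome 5, a run of 4 protein-coding genes between trafd1 and npdc1b, and make up all 3 adjacent pairs. Whether reads are shared between these genes is not known, so their levels are uncertain as single genes.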
